A study of Mus musculus with 12 samples.

Results

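The genes of the proteasome were taken as all genes whose annotated symbol begins with Psma to Psmg followed by a number, apart from Psmb8, Psmb9 and Psmb10, which encode the catalytic subunits of the immunoproteasome. Of 50 symbols with that pattern, 47 were kept out of 19505 genes on the array, each represented by 1 probe set. The 47 comprised 8 genes of the 20S alpha ring, 7 of the 20S beta ring, 8 of the 19S base, 9 of the 19S lid and other 19S positions, 6 activators and regulators (among them Psmf1, an inhibitor), and 7 assembly chaperones. The other 2, Psmc3ip (a meiotic recombination factor) and Psme3ip1 (a protein that binds Psme3), carry such symbols without encoding subunits. Psmb5, which encodes the chymotrypsin-like catalytic subunit, was not analysed here.

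The proteasome is the main protease for ubiquitin-tagged proteins in the cytosol and nucleus. Its 20S core is a barrel of stacked alpha and beta rings: the alpha rings gate the entrance and the beta rings carry the catalytic sites. The 19S particle caps the barrel. The ATPases of its base unfold substrates, while its lid removes ubiquitin. In macrophages exposed to interferon, the catalytic beta subunits can be replaced by those of the immunoproteasome, and the PA28 activator encoded by Psme1 and Psme2 is induced, which changes the peptides available for antigen presentation. Most of the remaining subunits are made by nearly all cells.

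RNA was measured on 12 Affymetrix arrays from RAW 264.7 cells, a mouse macrophage-like line established from a tumour induced by Abelson leukaemia virus. Cells received TsSP at 50 µg/mL with LPS (TsSP+LPS), inulin at 500 µg/mL and TsSP at 50 µg/mL with LPS (Inulin+TsSP+LPS), inulin at 500 µg/mL with LPS (Inulin+LPS) or LPS alone, with 3 arrays in each group. All 4 groups received LPS at 500 ng/mL and a 6 h culture, so no value describes unstimulated cells. Inulin is a fructose polymer from plants that gut bacteria ferment, LPS is the bacterial lipopolysaccharide sensed by TLR4, and TsSP is named in the labels only by that abbreviation, with the study design speaking of helminth products.

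A gene was taken as above background on an array where it exceeded the brightest of 23 background probes there, which lay at 6.16 to 6.28 on the log2 scale. Between 8771 and 9059 genes did so per array, and array medians were 5.16 to 5.30. All 8 macrophage markers examined were above background on 12 of 12 arrays. With TsSP 3 of them rose, Itgam (log2 difference 0.71), Fcgr3 (0.39) and Lyz2 (0.35), and Adgre1 fell by 1.10, with all 6 arrays with TsSP (12.57 to 13.23) below all 6 without it (13.82 to 14.26). All markers of T cells, B cells, neutrophils and epithelium were below it on every array. Of 2 endothelial markers, Pecam1 was above background on all 12 arrays and Cdh5 on 7. Cdh5, which lay near background, averaged 5.97 with TsSP+LPS and 5.86 with Inulin+TsSP+LPS, against 7.13 with Inulin+LPS and 7.16 with LPS alone, and it fell with TsSP (adjusted p = 0.00304). Of 2 fibroblast markers, Col1a1 passed background on 1 array. The median of 1324 positive control probe sets was 11.22 to 11.36 on arrays with TsSP and 11.00 to 11.21 on arrays without it. The part of this shift and of these markers in the differences below was not tested.

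Of the 47 proteasome genes, 44 were above background on all 12 arrays. Their mean levels ran from 7.52 to 16.1 log2 units. Their median spread within a group was 0.096 log2 units (SD, n = 3), against 0.16 for all 8289 genes above background on every array. The spreads were not matched for level, and the 44 genes were brighter. Their array medians were 13.68 to 14.04, against 10.77 to 10.94 for all genes above background. Psma8, a testis-specific alpha subunit, Psmb11, the thymus-specific beta subunit, and Psmg3, an assembly chaperone, were below background on every array and are given no fold.

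Proteasome genes moved in both directions with TsSP. With the 6 arrays that received TsSP set against the 6 that did not, across both inulin states, 12 of the 47 rose and 6 fell at an adjusted p below 0.05, where 14.8% and 11.0% of all genes tested rose and fell. Among the 8289 genes above background, where 44 of the 47 belong, the shares were 27.8% and 20.5%, and no excess of rises or falls is read from the counts. In bulk RNA, fewer cells expressing a gene and less RNA per cell cannot be told apart. The genes that rose were Psma1, Psma6, Psma7, Psmb3, Psmc1, Psmc3, Psmd1, Psmd2, Psmd3, Psmd5, Psmd11 and Psmd13. Those that fell were Psma8, Psmd8, Psmd10, Psme1, Psme2 and Psme2b. Of these, Psma8 was below background on every array and is not among the 8289 genes. The median log2 difference over the 47 genes was 0.048, against 0.0043 over all genes. Over the 44 genes above background it was 0.057, against 0.064 over all genes above background.

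The split depended on the scaling. Centring each array on its positive control median lowered the pooled TsSP difference of every gene on the array by 0.16 log2 units. The shift was 0.21 for TsSP+LPS against LPS, 0.20 for Inulin+TsSP+LPS against LPS and 0.11 for Inulin+TsSP+LPS against Inulin+LPS. In the pooled comparison 4 proteasome genes (Psma7, Psmc1, Psmd5 and Psmd13) then rose while 8 fell, so that 33.3% of the called proteasome genes were higher instead of 66.7%. The share over all called genes moved alike, with 32.4% higher instead of 57.2%. Psmb6 and Psmg2 were called lower on that scale. Centring on the gene median gave 8 higher and 6 lower, and quantile normalization gave 12 and 6. Differences are given on the deposited scale below. No called difference changed sign on any of these scales, while uncalled positive differences smaller than the shift of their comparison turned negative with positive control centring.

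**Figure D1:**
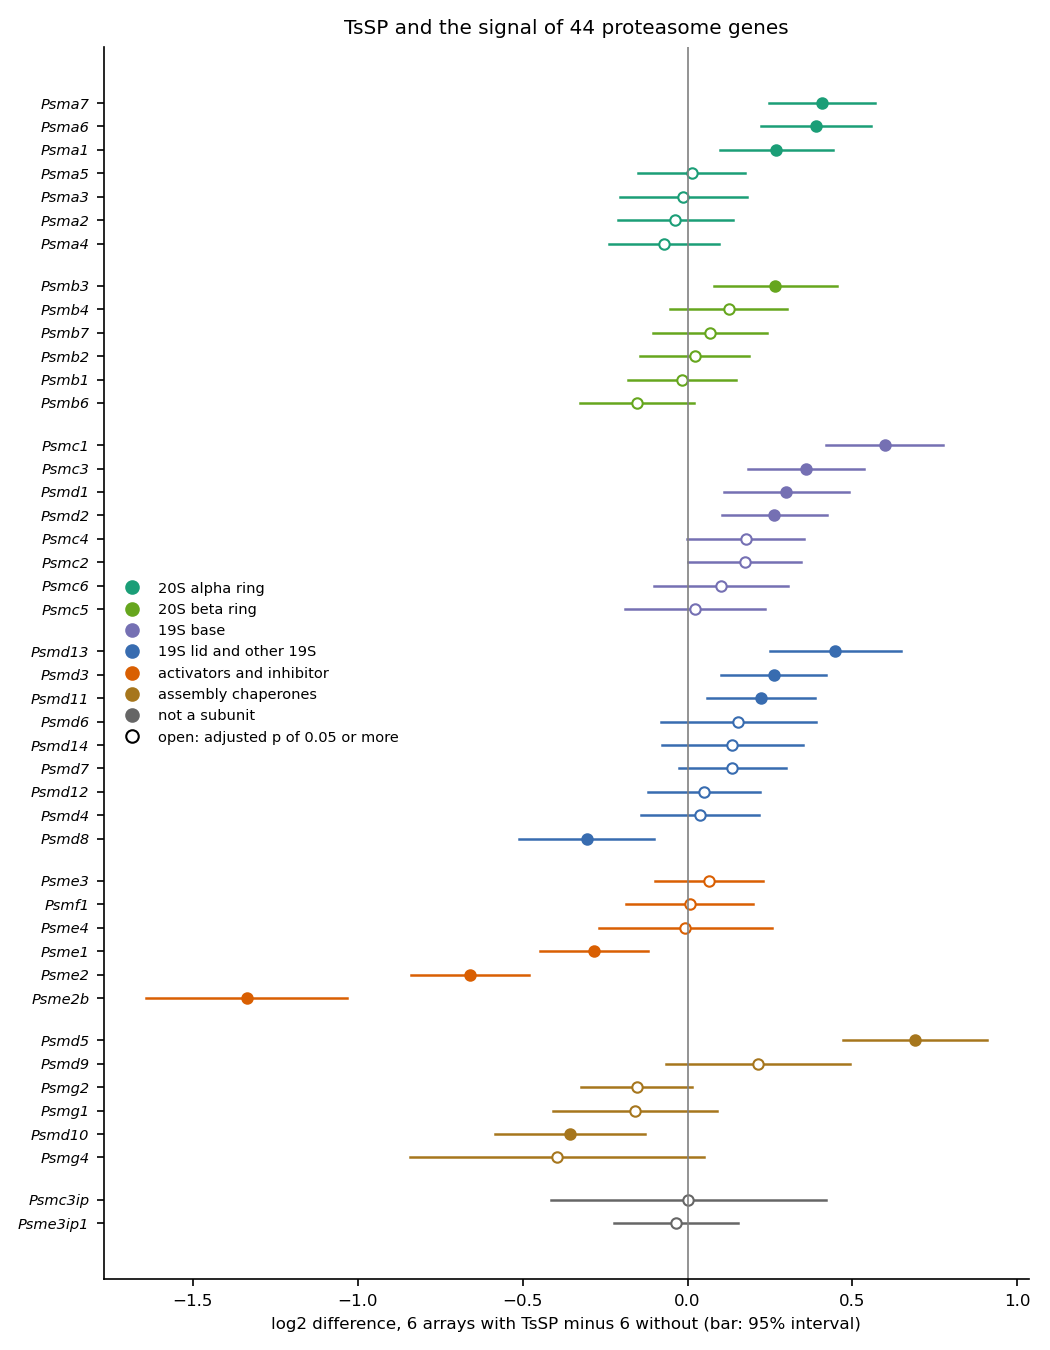
Log2 difference of the 6 arrays with TsSP over the 6 without for each proteasome gene above background, grouped by position in the particle, with 95% intervals from limma and filled points for genes past the threshold. The 19S base lies to the right of 0, from 0.02 to 0.60, and the leftmost points are Psme2b at -1.34 and Psme2 at -0.66.

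**Figure D2:**
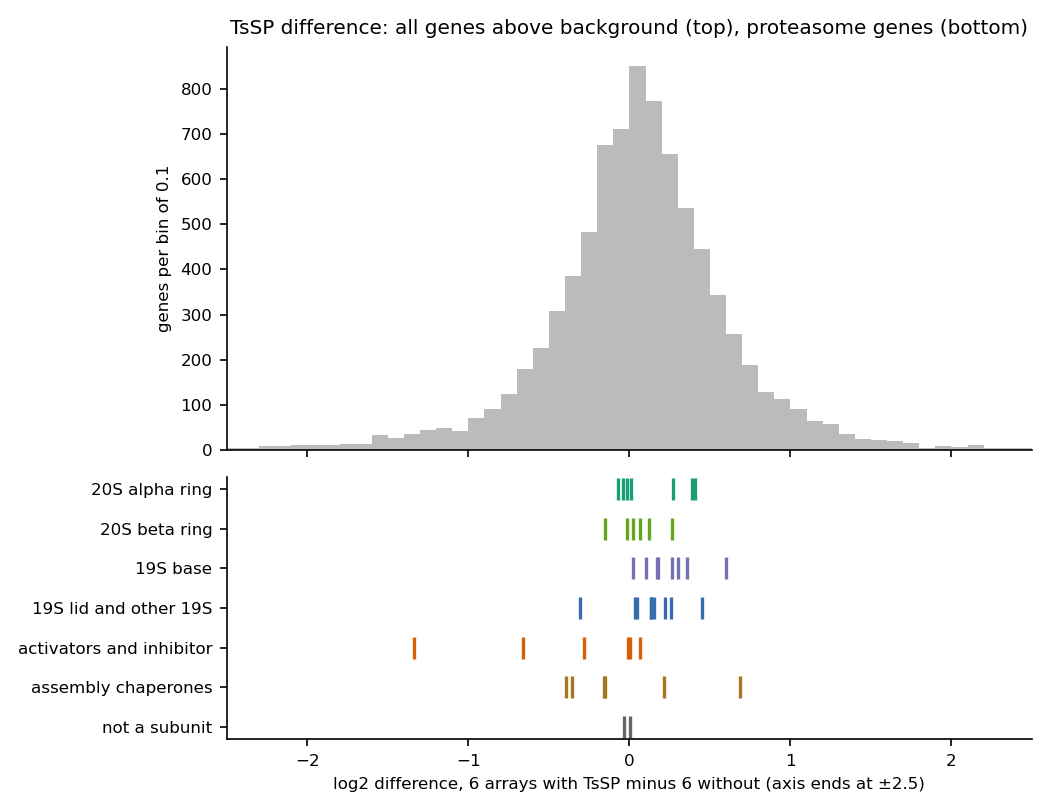
Distribution of the same log2 difference over all genes above background on every array, with the proteasome genes marked. The proteasome genes have a median of 0.057 and the genes above background a median of 0.064, and Psme2b, Psme2, Psmc1 and Psmd5 lie farthest out among the proteasome genes.

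All 8 genes of the 19S base, the ATPase ring and its scaffold subunits, had positive differences on the deposited scale, with a median of 0.22 and a lowest value of 0.02 for Psmc5, although those of Psmc5 and Psmc6 turned negative with positive control centring. Of these, 4 passed the test (Psmc1, Psmc3, Psmd1 and Psmd2). Over all genes above background, 56.5% had a positive difference and 27.8% were called higher, and nothing particular to the base is read from its count. The class median was 0.063 after positive control centring, 0.18 after gene-median centring and 0.24 after quantile normalization. Psmc1 encodes an ATPase whose tail docks into the alpha ring to open the gate, and it changed most in this class. Psmc1 read 13.80, 13.75 and 13.84 with TsSP+LPS and 14.12, 13.91 and 13.90 with Inulin+TsSP+LPS, against 13.32, 13.33 and 13.49 with Inulin+LPS and 13.08, 13.27 and 13.24 with LPS alone (log2 signal, replicates 1 to 3). All 6 arrays with TsSP stood above all 6 without it. The log2 difference was 0.60 (SE 0.08), or 1.51-fold, with an adjusted p of 0.000161. In every alternative run, Psmc1 stayed called and higher.

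The promoter of Psmc1 is shown as the member of the base with the largest change, at chr12:100109952-100110251 on the plus strand. Capitals mark a CCAAT box and, on the reverse strand, a match to the ETS motif. Sequences here and below are from RefSeq (GRCm38.p6), 250 bases before to 50 bases after the start.
Psmc1: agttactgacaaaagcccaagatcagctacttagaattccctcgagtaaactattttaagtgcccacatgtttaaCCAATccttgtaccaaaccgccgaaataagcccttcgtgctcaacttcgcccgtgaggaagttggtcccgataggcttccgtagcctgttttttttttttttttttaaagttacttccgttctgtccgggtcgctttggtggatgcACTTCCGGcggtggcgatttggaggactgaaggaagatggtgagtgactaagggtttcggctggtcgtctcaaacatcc

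Psmc3 read 13.12, 13.26 and 13.35 with TsSP+LPS and 13.26, 13.11 and 13.16 with Inulin+TsSP+LPS, against 12.98, 12.96 and 12.77 with Inulin+LPS and 12.81, 12.84 and 12.75 with LPS alone. Psmc3 encodes another ATPase with a gate-opening tail, and its arrays with TsSP again lay above all those without. Its log2 difference was 0.36 (SE 0.08, adjusted p = 0.00537). Psmd2 read 13.86, 13.75 and 13.91 with TsSP+LPS and 13.91, 13.83 and 13.79 with Inulin+TsSP+LPS, against 13.52, 13.63 and 13.60 with Inulin+LPS and 13.60, 13.60 and 13.52 with LPS alone. Psmd2 is a scaffold subunit that docks ubiquitin shuttle proteins, and its groups with and without TsSP did not overlap. Its difference was smaller at 0.26 (SE 0.07, adjusted p = 0.0188). Psmd1, the other large scaffold subunit, differed by 0.30 with overlapping groups (adjusted p = 0.0233), and it no longer passed without TsSP+LPS replicate 1 (adjusted p = 0.0599), Inulin+LPS replicate 3 or Inulin+TsSP+LPS replicate 2 or 3. The ATPase genes Psmc2, Psmc4, Psmc5 and Psmc6, which did not pass, had log2 differences of 0.17, 0.18, 0.02 and 0.10.

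Among the 9 genes of the 19S lid and other 19S positions, 3 rose (Psmd3, Psmd11 and Psmd13), 1 fell (Psmd8) and 5 did not pass the test. The class median was 0.14, and it was -0.02 after positive control centring. Psmd13, a structural subunit of the lid, changed most. Psmd13 read 14.10, 14.13 and 14.19 with TsSP+LPS and 14.26, 14.04 and 14.42 with Inulin+TsSP+LPS, against 13.92, 13.76 and 13.66 with Inulin+LPS and 13.63, 13.80 and 13.66 with LPS alone. The lowest array with TsSP, at 14.04, lay above the highest without it, at 13.92. The log2 difference was 0.45 (SE 0.09), or 1.36-fold, with an adjusted p of 0.00277. The promoter of Psmd13 is shown as that of the lid gene with the largest change, at chr7:140882144-140882443 on the plus strand, with the ETS match in capitals.
Psmd13: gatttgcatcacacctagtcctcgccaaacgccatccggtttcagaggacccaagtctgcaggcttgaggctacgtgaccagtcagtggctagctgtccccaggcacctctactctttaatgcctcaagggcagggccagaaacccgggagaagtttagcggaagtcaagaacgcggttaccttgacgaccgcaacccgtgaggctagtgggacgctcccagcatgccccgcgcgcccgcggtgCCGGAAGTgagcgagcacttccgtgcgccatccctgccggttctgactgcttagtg

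Psmd3 read 14.24, 14.21 and 14.33 with TsSP+LPS and 14.32, 14.22 and 14.36 with Inulin+TsSP+LPS, against 14.13, 14.07 and 13.999 with Inulin+LPS and 13.92, 14.01 and 13.99 with LPS alone. Psmd3 is a horseshoe-shaped lid subunit, and its arrays with and without TsSP did not overlap. The difference was 0.26 log2 units (SE 0.07, adjusted p = 0.0193), the within-group spread was the lowest of the proteasome genes at 0.062, and without TsSP+LPS replicate 3 the adjusted p was 0.0506. Psmd8 read 14.02, 14.09 and 14.43 with TsSP+LPS and 14.60, 14.38 and 14.43 with Inulin+TsSP+LPS, against 14.70, 14.83 and 14.68 with Inulin+LPS and 14.56, 14.47 and 14.55 with LPS alone. Psmd8, whose yeast counterpart joins the lid last during assembly, was the lid gene that fell, by 0.31 log2 units (SE 0.09, adjusted p = 0.0302), with overlapping groups. Psmd11, which braces the lid against the core, differed by 0.22 (adjusted p = 0.0484). Leaving out 1 array at a time ended the call of Psmd8 in 8 of 12 cases (adjusted p up to 0.0755) and that of Psmd11 in 10 of 12 (up to 0.10). The deubiquitinase gene Psmd14 and the ubiquitin receptor gene Psmd4 had differences of 0.14 and 0.04, with adjusted p-values of 0.373 and 0.810. Psmd6, Psmd7 and Psmd12, all structural, had differences of 0.15, 0.14 and 0.05 and did not pass.

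**Figure D3:**
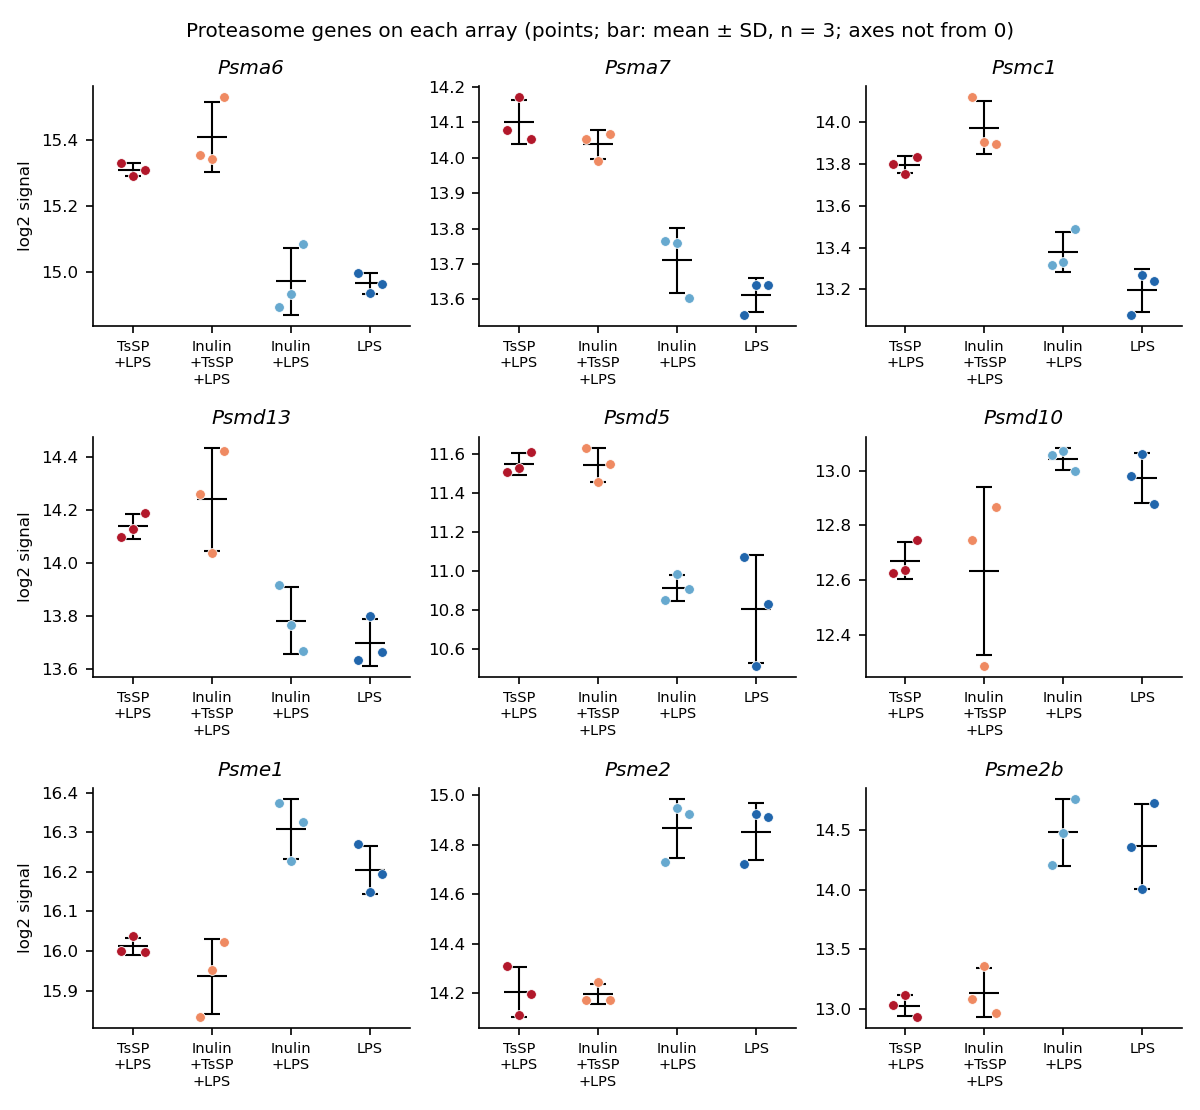
Log2 signal of Psma6, Psma7, Psmc1, Psmd13, Psmd5, Psmd10, Psme1, Psme2 and Psme2b on each array, 1 panel a gene. TsSP+LPS and Inulin+TsSP+LPS stand left of Inulin+LPS and LPS, and bars give the group mean and SD. Psma6, Psma7, Psmc1, Psmd13 and Psmd5 are higher on every array with TsSP, and Psmd10, Psme1, Psme2 and Psme2b are lower on every one.

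Genes of the 20S alpha ring differed among themselves. Their median over the 7 genes above background was 0.012 log2 units on the deposited scale and -0.15 after positive control centring. Within it, Psma1, Psma6 and Psma7 rose, and Psma2, Psma3, Psma4 and Psma5 had differences of -0.04, -0.01, -0.07 and 0.01 and did not pass. Psma7 read 14.08, 14.17 and 14.05 with TsSP+LPS and 14.05, 13.99 and 14.07 with Inulin+TsSP+LPS, against 13.77, 13.76 and 13.60 with Inulin+LPS and 13.56, 13.64 and 13.64 with LPS alone. Psma6 read 15.33, 15.29 and 15.31 with TsSP+LPS and 15.35, 15.34 and 15.53 with Inulin+TsSP+LPS, against 14.89, 14.94 and 15.09 with Inulin+LPS and 14.998, 14.94 and 14.96 with LPS alone. For both genes, each array with TsSP lay above each array without it. The log2 difference was 0.41 (SE 0.07, adjusted p = 0.00123) for Psma7 and 0.39 (SE 0.08, adjusted p = 0.00215) for Psma6. Psma1 differed by 0.27 (adjusted p = 0.0244), and its arrays with and without TsSP overlapped. Psma1 did not pass without LPS replicate 2, TsSP+LPS replicate 1 or 3, Inulin+LPS replicate 2 or Inulin+TsSP+LPS replicate 3 (adjusted p up to 0.0619). Psma8 read 3.22, 3.46 and 3.37 with TsSP+LPS and 3.46, 3.51 and 3.21 with Inulin+TsSP+LPS, against 3.57, 4.08 and 3.69 with Inulin+LPS and 3.90, 3.83 and 3.82 with LPS alone. All of these Psma8 values were under the background probes, so its passing of the test (adjusted p = 0.00786) is given without a fold.

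In the 20S beta ring, Psmb3 rose and the other 5 genes above background did not pass the test. The class median was 0.05 log2 units, and -0.11 after positive control centring. Psmb3 is a non-catalytic beta subunit. Psmb3 read 13.39, 13.69 and 13.56 with TsSP+LPS and 13.48, 13.53 and 13.41 with Inulin+TsSP+LPS, against 13.26, 13.43 and 13.15 with Inulin+LPS and 13.19, 13.19 and 13.24 with LPS alone. Its groups with and without TsSP overlapped, and the log2 difference was 0.27 (SE 0.08, adjusted p = 0.0380). Its call was lost in 10 of 12 cases with 1 array left out, with an adjusted p up to 0.0950. Psmb4 read 13.91, 13.97 and 13.89 with TsSP+LPS and 13.98, 13.69 and 13.77 with Inulin+TsSP+LPS, against 13.74, 13.81 and 13.62 with Inulin+LPS and 13.82, 13.74 and 13.72 with LPS alone. Psmb4, also non-catalytic, had a difference of 0.12 (adjusted p = 0.320), and Psmb1 and Psmb2 had -0.02 and 0.02.

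The constitutive catalytic genes measured were Psmb6, with caspase-like activity, and Psmb7, with trypsin-like activity. Psmb6 read 15.38, 15.38 and 15.46 with TsSP+LPS and 15.51, 15.33 and 15.49 with Inulin+TsSP+LPS, against 15.59, 15.70 and 15.54 with Inulin+LPS and 15.44, 15.66 and 15.55 with LPS alone. Psmb7 read 14.78, 14.92 and 14.72 with TsSP+LPS and 14.74, 14.71 and 14.76 with Inulin+TsSP+LPS, against 14.68, 14.91 and 14.64 with Inulin+LPS and 14.68, 14.64 and 14.66 with LPS alone. With and without TsSP, both genes overlapped. The log2 difference was -0.15 for Psmb6 (95% interval -0.33 to 0.02, adjusted p = 0.196) and 0.07 for Psmb7 (95% interval -0.11 to 0.24, adjusted p = 0.611). The immunoproteasome genes, which were left out of the set, all fell with TsSP, with log2 differences of -0.72 for Psmb9, -1.07 for Psmb10 and -0.43 for Psmb8. The difference between the constitutive and the immunoproteasome genes was not tested.

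The activator genes of the PA28 alpha-beta complex fell. Psme1 read 15.999, 16.04 and 15.998 with TsSP+LPS and 15.83, 15.95 and 16.02 with Inulin+TsSP+LPS, against 16.38, 16.23 and 16.32 with Inulin+LPS and 16.27, 16.15 and 16.20 with LPS alone. Psme2 read 14.31, 14.11 and 14.19 with TsSP+LPS and 14.17, 14.24 and 14.17 with Inulin+TsSP+LPS, against 14.73, 14.95 and 14.92 with Inulin+LPS and 14.72, 14.93 and 14.91 with LPS alone. All 6 arrays with TsSP lay below all 6 without it for each gene. Psme2 fell by 0.66 log2 units (SE 0.08, adjusted p = 7.96e-05), or 1.58-fold, and Psme1 fell by 0.28 (SE 0.07, adjusted p = 0.0139). Psme2b read 13.03, 13.11 and 12.94 with TsSP+LPS and 13.08, 13.36 and 12.97 with Inulin+TsSP+LPS, against 14.20, 14.47 and 14.76 with Inulin+LPS and 14.35, 14.01 and 14.72 with LPS alone. Psme2b is a near-identical copy of Psme2 on another chromosome, so its probes and those of Psme2 may read both transcripts and its value is uncertain. As listed, it fell by 1.34 log2 units (SE 0.14, adjusted p = 1.97e-05), or 2.53-fold, and it changed most among the proteasome genes in each of the 4 comparisons of arrays with TsSP against arrays without it.

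The promoter of Psme1 is shown because it was the PA28 promoter with a match to the interferon-stimulated response element core, on the reverse strand and in capitals. The promoters of Psme2 and Psme2b, genes that fell more, held no match to it. The Psme1 promoter lies at chr14:55578244-55578543 on the plus strand.
Psme1: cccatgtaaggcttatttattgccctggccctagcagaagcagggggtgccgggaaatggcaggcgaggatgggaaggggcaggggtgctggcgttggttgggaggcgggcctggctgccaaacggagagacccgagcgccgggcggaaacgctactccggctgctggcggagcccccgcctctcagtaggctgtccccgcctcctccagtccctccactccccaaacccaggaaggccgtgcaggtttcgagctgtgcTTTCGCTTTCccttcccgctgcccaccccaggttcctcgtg

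The other activators did not pass the test. Psme3 read 14.84, 14.61 and 14.70 with TsSP+LPS and 14.75, 14.63 and 14.76 with Inulin+TsSP+LPS, against 14.59, 14.66 and 14.60 with Inulin+LPS and 14.66, 14.70 and 14.68 with LPS alone. Psme3 encodes the nuclear PA28 gamma activator, and its difference was 0.06 (95% interval -0.10 to 0.23, adjusted p = 0.609) with overlapping groups. Psme4, the PA200 activator, and Psmf1, the PI31 regulator described as an inhibitor of the core in vitro, differed by -0.01 and 0.01, with 95% intervals of -0.27 to 0.25 and -0.19 to 0.20.

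Of the 6 assembly chaperone genes above background, Psmd5 rose, Psmd10 fell and 4 did not pass. Psmd5 binds ATPases of the base during its assembly and leaves before the particle is complete. Psmd5 read 11.51, 11.53 and 11.61 with TsSP+LPS and 11.63, 11.46 and 11.55 with Inulin+TsSP+LPS, against 10.85, 10.99 and 10.91 with Inulin+LPS and 11.07, 10.51 and 10.83 with LPS alone. The lowest array with TsSP, at 11.46, stood above the highest without it, at 11.07. The log2 difference was 0.69 (SE 0.10), or 1.61-fold, with an adjusted p of 0.000256. In all alternatives run, Psmd5 stayed called and higher. Its promoter, shown beside that of Psmc1 as the other of the 2 largest rises, held no match to any motif searched and is printed in lower case throughout. It lies at chr2:34870913-34871212 on the minus strand.
Psmd5: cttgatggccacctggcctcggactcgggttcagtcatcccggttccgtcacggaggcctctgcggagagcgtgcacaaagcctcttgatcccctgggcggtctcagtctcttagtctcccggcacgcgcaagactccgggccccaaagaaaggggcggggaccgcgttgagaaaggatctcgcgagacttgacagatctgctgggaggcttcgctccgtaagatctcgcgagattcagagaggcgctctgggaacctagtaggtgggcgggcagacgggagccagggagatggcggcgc

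Psmd10 (gankyrin) is also a chaperone of base assembly. Psmd10 read 12.63, 12.64 and 12.75 with TsSP+LPS and 12.75, 12.29 and 12.87 with Inulin+TsSP+LPS, against 13.06, 13.07 and 12.998 with Inulin+LPS and 12.98, 13.06 and 12.88 with LPS alone. Its 6 arrays with TsSP lay below all 6 without it, and it fell by 0.36 log2 units (SE 0.10, adjusted p = 0.0244). Without LPS replicate 2, TsSP+LPS replicate 1 or 2, or Inulin+LPS replicate 2, Psmd10 no longer passed (adjusted p up to 0.0545). Psmg2 read 11.48, 11.31 and 11.21 with TsSP+LPS and 11.29, 11.30 and 11.29 with Inulin+TsSP+LPS, against 11.53, 11.37 and 11.47 with Inulin+LPS and 11.48, 11.46 and 11.49 with LPS alone. Psmg2, a chaperone of alpha ring assembly, had a difference of -0.15 (95% interval -0.32 to 0.01, adjusted p = 0.183), and its groups overlapped. Psmd9, another base chaperone, differed by 0.21 (adjusted p = 0.273). Psmg1 and Psmg4, chaperones of the alpha ring, had differences of -0.16 and -0.40, and Psmg4 had the widest within-group spread of the proteasome genes, at 0.40. Psmc3ip and Psme3ip1, which are not subunits, differed by 0.0025 and -0.04.

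**Figure D4:**
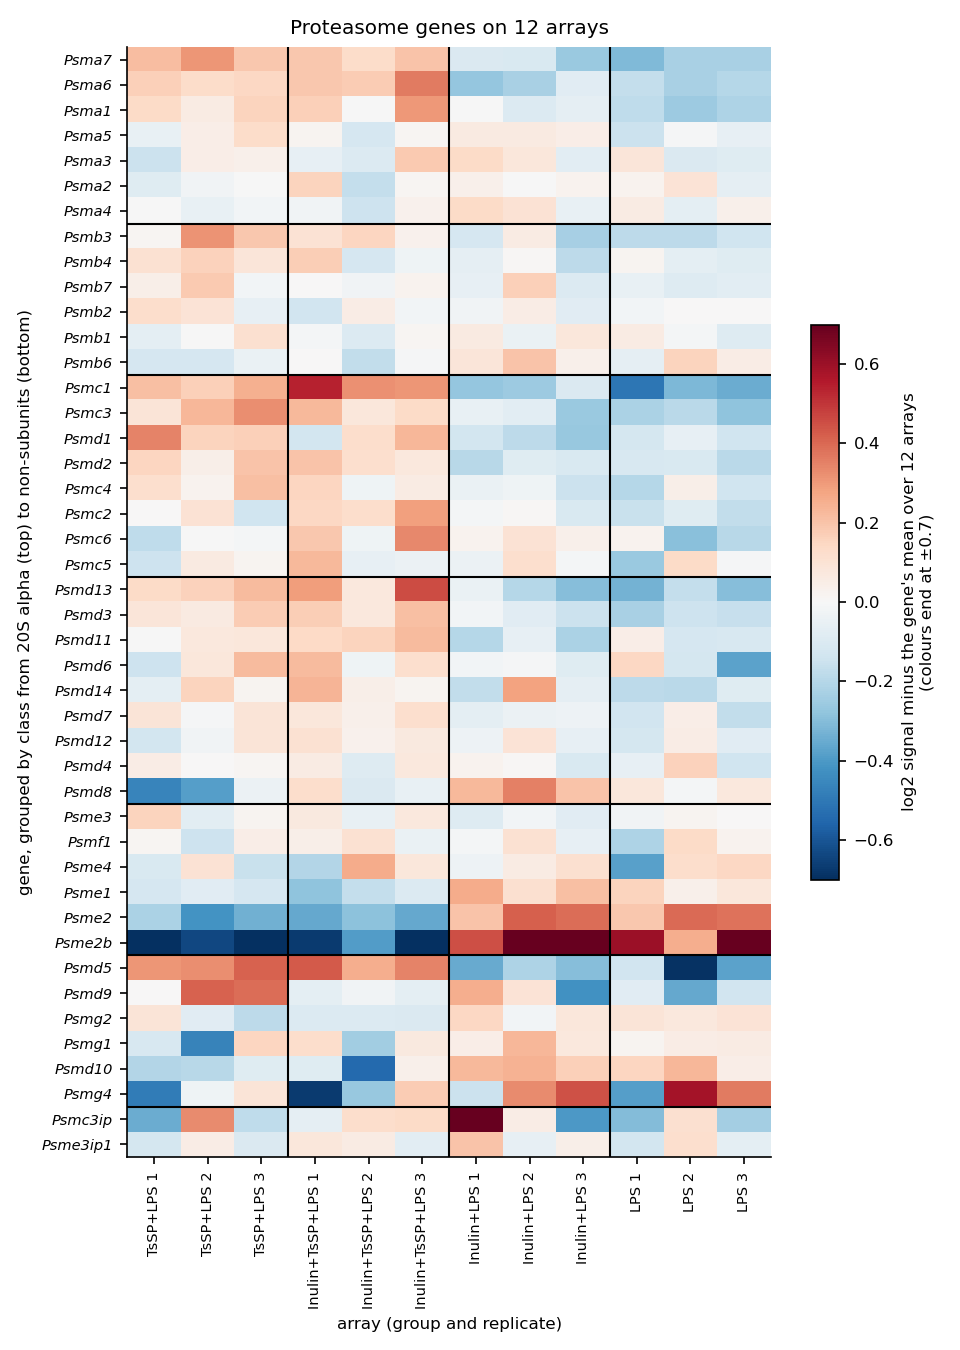
Log2 signal of each proteasome gene above background on each of the 12 arrays, as the difference from that gene's mean over the arrays, with arrays in columns (TsSP+LPS, Inulin+TsSP+LPS, Inulin+LPS, LPS) and genes in rows by class. Psme2b and Psme2 are low and Psmc1 and Psmd5 high on the 6 arrays with TsSP, and the columns of Inulin+LPS and LPS differ little.

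Taken by single groups, TsSP+LPS against LPS called 6 proteasome genes higher (Psma6, Psma7, Psmc1, Psmc3, Psmd5 and Psmd13) and 3 lower (Psma8, Psme2 and Psme2b), where 11.0% and 7.08% of all genes were called higher and lower. Inulin+TsSP+LPS against LPS, groups that differ in both TsSP and inulin, called 8 higher (Psma1, Psma6, Psma7, Psmc1, Psmc3, Psmd3, Psmd5 and Psmd13) and 2 lower (Psme2 and Psme2b), where the background was 10.3% and 7.30%. Inulin+TsSP+LPS against Inulin+LPS called 4 higher (Psma6, Psmc1, Psmd5 and Psmd13) and 3 lower (Psme1, Psme2 and Psme2b), where the background was 8.66% and 7.99%. Over the 8289 genes above background the shares higher and lower were larger, at 20.9% and 13.4%, 19.7% and 14.2%, and 16.5% and 15.6% in the same order, and no excess is read from the proteasome counts. Psma8, counted among the lower calls of TsSP+LPS against LPS, is not one of these 8289. With positive control centring the splits of proteasome genes became 2 higher and 5 lower, 2 and 5, and 2 and 4, and the 2 higher genes were Psmc1 and Psmd5 each time. The shares of higher genes among all called genes also dropped, to 31.8%, 30.5% and 37%, against 60.8%, 58.5% and 52% as deposited. The comparisons against LPS share its 3 arrays, and those of Inulin+TsSP+LPS share the 3 arrays of that group. The pooled comparison uses all 12, so calls of a gene in several comparisons are not independent. Counting these 3 comparisons and the pooled one, 44 calls were made. Of them, 20 held in every fit with 1 array left out and in every other alternative. These included the calls of Psmc1, Psmd5, Psme2 and Psme2b in all 4. In Inulin+TsSP+LPS against LPS, by contrast, Psmd3 was called in 0, Psma1 in 1 and Psmc3 in 3 of 12 fits with 1 array left out. In TsSP+LPS against LPS, Psma6 was called in 2 of 12 such fits. Over the 12 arrays, 8 proteasome genes had all 6 arrays with TsSP above all 6 without, where 10.4% of all genes did, and 5 (Psma8, Psmd10, Psme1, Psme2 and Psme2b) had all 6 below, where 7.66% did. Over the genes above background, to which Psma8 does not belong, these shares were 21.4% and 16.3%.

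TsSP+LPS against LPS and Inulin+TsSP+LPS against Inulin+LPS share no array. Their log2 differences were 0.60 and 0.60 for Psmc1, 0.75 and 0.63 for Psmd5, 0.44 and 0.46 for Psmd13, and 0.34 and 0.44 for Psma6. For the activators they were -0.19 and -0.37 for Psme1, -0.65 and -0.67 for Psme2, and -1.33 and -1.34 for Psme2b. Of the 44 proteasome genes above background, 35 (79.5%) had the same sign in both, against 7047 of 8289 genes above background (85.0%). Across those 44 genes Pearson's r was 0.947, against 0.940 over the 8289 genes. The genes were measured together on the same arrays and are not independent replicates. Of the 8 proteasome genes above background called without inulin and the 7 called with it, 6 were called in both (75% and 85.7% of the lists). Over all 8289 genes above background, 2198 were called in both (77.4% and 82.8% of the lists), so nothing particular to proteasome genes is read from this overlap.

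**Figure D5:**
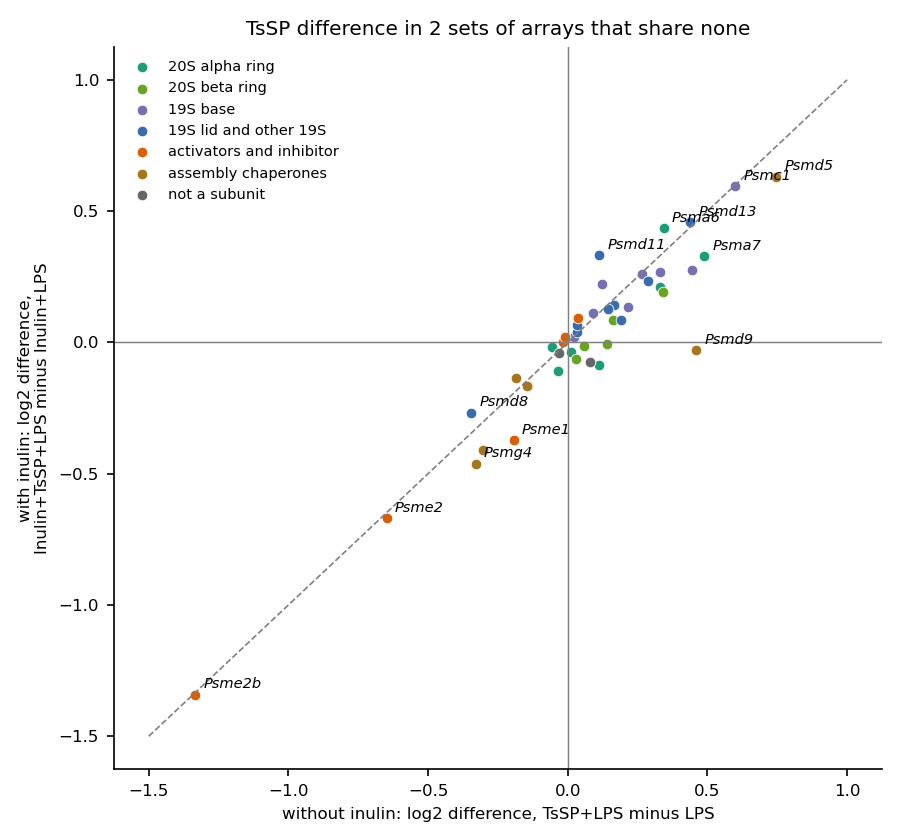
Log2 difference of Inulin+TsSP+LPS over Inulin+LPS (vertical) against that of TsSP+LPS over LPS (horizontal) for the 44 proteasome genes above background, which share no array, with the line of equality. Most genes lie near the line, and Psmd9 lies farthest from it, by 0.49.

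Whether the TsSP difference itself depended on inulin was tested as an interaction, and 0 proteasome genes passed it in either direction, where 0% of all genes did (limma). At an unadjusted p below 0.05 the interaction held 0 proteasome genes and 1089 of all genes (5.58%). Psmd9 came nearest, with TsSP differences of -0.03 with inulin and 0.46 without it, an interaction of -0.49 (SE 0.25, 95% interval -1.05 to 0.07) and an adjusted p of 0.916.

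Inulin itself gave no called proteasome gene. In Inulin+LPS against LPS 0 of 47 genes were called higher or lower, where 0% of all genes were (limma), and at an unadjusted p below 0.05 there were 0 proteasome genes and 1143 of all genes (5.86%). Differences of the 44 genes above background lay between -0.10 (Psmd11) and 0.29 (Psmc3ip), with a median size of 0.078, and the 95% intervals of 40 of them lay wholly within 0.5 log2 units of 0. In Inulin+TsSP+LPS against TsSP+LPS 0 of 47 genes were called in either direction, where 0% of all genes were, with 0 proteasome genes and 971 of all genes (4.98%) at an unadjusted p below 0.05. The intervals of 38 of the 44 lay within 0.5 log2 units of 0. Differences well under these intervals could not be resolved with 3 arrays a group.

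Of 26 other genes of the proteasome and ubiquitin pathway that were measured, all were above background on every array, and with TsSP 4 rose, 2 fell and 20 did not pass. These are 15.4% and 7.69% of the list, below the 27.8% and 20.5% of all genes above background. The median difference was 0.012 log2 units, against 0.064. Vcp, the segregase that extracts ubiquitin-tagged proteins, had a difference of 0.48 (adjusted p = 0.0182), and its cofactor gene Nploc4 had 0.52 (adjusted p = 0.00409). Ubqln2, a shuttle that carries ubiquitin-tagged proteins to the proteasome, had 0.61 (adjusted p = 0.00117), and Txnl1, a thioredoxin bound to the 19S particle, had 0.24 (adjusted p = 0.0358). Ngly1, the deglycosylase that processes the proteasome transcription factor encoded by Nfe2l1, fell by 0.93 (adjusted p = 0.000106), and Zfand5, a proteasome-binding zinc finger protein, fell by 0.21 (adjusted p = 0.0422). Nfe2l1 itself had a difference of 0.01 (95% interval -0.15 to 0.17), Nfe2l2 had -0.09 (95% interval -0.38 to 0.20) and the core assembly factor gene Pomp had 0.01 (95% interval -0.18 to 0.20), and these 3 did not pass.

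Promoters of 300 bases were matched for 39 of the 47 genes, as 43 promoters, and were searched on both strands for 6 motifs beside 32851 promoters of the same length. The ETS motif, spelled CCGGAAGT, was in 23.3% of the proteasome promoters, against 3.89% of all promoters. Both promoters of Psmc2 held it. The set of all promoters was not restricted to genes above background here, and shares for such genes were not computed. The NRF1 motif is that of the nuclear respiratory factor, not of the factor encoded by Nfe2l1. This motif, GCGCA and GCGC around any base, was in 16.3% against 4.60%. The interferon-stimulated response element core, GAAA on both sides of any 2 bases, was in 11.6% against 3.44%. CCAAT was in 34.9% against 37.4%, the antioxidant response element core TGACNNNGC in 11.6% against 12.4%, and the gamma-activated site core TTCNNNGAA in 4.65% against 8.30%. By response to TsSP, the ETS motif was in 27.3% of the 11 promoters of genes that rose and 26.9% of the 26 of genes that did not pass, and the NRF1 motif was in 0% and 26.9% of them. Neither motif was in the 6 promoters of genes that fell. Psme2 enters these 6 with overlapping promoters, Psma6 enters the 11 more than once, and Psma8, Psmc3 and Psmd3 had no promoter. The interferon-stimulated response element core was in 9.09% of promoters of genes that rose (1 promoter, of Psmb3) and 16.7% of those of genes that fell (1 promoter, of Psme1). It was in 11.5% of those of genes that did not pass. Matches are counts of letters in these windows, the motifs were counted separately where they overlap, and no test was made of these shares.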

How the data were processed

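RNA was labelled with biotin for Affymetrix mouse arrays, per the labels' protocols. The deposited table gives 1 log2 value per probe set and array as the authors made it. Base 2 is read from the range of 1.32 to 18.9. How the authors corrected background and normalized, and with what software, is not given in the sources used here. Values were used as deposited. Probe sets were named by the platform annotation (19572 of 28846 have 1 symbol), and for 55 genes with several probe sets the brightest was kept, leaving 19505 genes. Compressed bright signals would understate folds of genes as bright as these.

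Groups follow the labels, which do not say whether the 3 arrays of a group are separate cultures, so p-values cover only the spread among these arrays, which may be technical. A limma 3.58.1 model (R 4.3.3) with 4 group means, 8 residual and 3.35 prior degrees of freedom gave 7 contrasts; p-values are two-sided, adjusted by Benjamini and Hochberg over 19505 genes and called at 0.05. The fit was tested on simulated data, and no result of that test is given here. The proteasome genes, classes and lists were chosen with earlier results of these data known. Every gene called in a TsSP comparison is named; array values are given for the 3 genes of each class with the smallest p for TsSP pooled over inulin, and for Psme1, Psme2, Psme3, Psmb6 and Psmb7. Alternatives were 3 scalings, a background filter, a variance trend, probe set means, fits of only the groups compared, a replicate block and leaving out each array. The number of arrays limits the precision. Figures used matplotlib 3.10.9 (Python 3.11.15).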

Additional observations from a re-analysis of the deposited data

How the results depend on the processing

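The pooled TsSP comparison called 12 to 22 proteasome genes over all alternatives run and 13 to 16 with 1 array left out, against 18 as reported. Of those 18, 10 were among the 12 called with positive control centring. TsSP+LPS against LPS called 9, and this became 15 when only genes above background in a group were tested and 16 with a mean-variance trend. With 1 array left out it was 5 to 10, the lowest without LPS replicate 3 or TsSP+LPS replicate 2. Inulin+TsSP+LPS against LPS called 10, with 17 under the trend, 4 when only the groups compared were fitted (fewer arrays) and 5 to 8 with 1 array left out, the lowest without Inulin+TsSP+LPS replicate 3. Inulin+TsSP+LPS against Inulin+LPS called 7, with 13 above background, 15 under the trend, 4 in the fit of only the groups compared and 5 to 8 with 1 array left out. Centring on positive controls moved the median difference over the 47 genes to -0.15 for TsSP+LPS against LPS, where it was 0.059, and to -0.11 for the pooled comparison, where it was 0.048 (the alternatives for the pooled median were chosen after seeing the data). The cause of these changes was not tested. Both inulin comparisons and the interaction called 0 proteasome genes in every alternative run, and at no setting did a called value change sign. The pooled comparison and the interaction use all groups, so a fit of only the groups compared was not made for them.

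Replicate numbers are shared across groups. Of 18 same-numbered pairs of arrays, 1 had a correlation of deviations over 0.1 (range -0.10 to 0.12). Among 36 pairs with different numbers it was also 1 (range -0.14 to 0.13). These correlations cannot tell whether arrays with the same number were handled together. With a replicate block the calls were 7 for TsSP+LPS against LPS, 7 for Inulin+TsSP+LPS against LPS, 5 for Inulin+TsSP+LPS against Inulin+LPS and 16 for the pooled comparison, in which Psmd8 reached an adjusted p of 0.0539. With 3 arrays a group, some differences under 0.5 log2 units were called and others were not. In Inulin+TsSP+LPS against LPS, Psmd3 was called at 0.33 and Psmg4 was not at -0.44, so differences of this size could be missed.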
